A study of Sus scrofa with 4 samples.

Results

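The BCL2 family and the executors of apoptosis were followed through 10 genes in pig blastocysts: BAX, BCL2, BCL2L1, BID, BAD, MCL1, DIABLO, AIFM1, CASP6 and MDM2. Probes were assigned to these genes by symbol, from 10024 gene symbols on the array, and the rule for membership held no threshold on a measured value. Of the 43794 porcine probes of the EMPV1 array, 13146 carried a gene symbol and 15 of those named 1 of the 10 genes. MCL1 had 3 probes, BID, DIABLO and CASP6 had 2 each, and the other 6 genes had 1 each. All 15 probes entered the test.

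Apoptosis through the mitochondrion is set by the balance between BCL2 family proteins that permeabilise the outer mitochondrial membrane and those that restrain them. Once the membrane opens, proteins of the intermembrane space reach the cytosol, inhibitors of caspases are displaced, and executioner caspases cut structural and nuclear proteins. Mammalian blastocysts lose some cells in this way, in the inner cell mass as well as in the trophectoderm. Much of the control of these proteins, such as cleavage of BID and phosphorylation of BAD, takes place after translation and would leave no trace in a transcript level.

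The study concerned NEFA (non-esterified fatty acids), which fat stores release into the blood, and set blastocysts grown from oocytes that met high NEFA against control blastocysts. Each of the 4 two-colour arrays carried 1 pool of 10 high NEFA blastocysts and 1 pool of 10 control blastocysts of Sus scrofa, taken on days 7 and 8, with Cy3 on the high NEFA pool of replicates 1 and 2 and Cy5 on that of replicates 3 and 4. The concentration of NEFA, the length of the exposure and the breed and age of the sows are not given in the sources used here. The series title also names a culture on a monolayer of GCs, which is not spelled out, and whether both kinds of pool had it is not stated. The labels give total RNA as the molecule, whereas the laboratory protocols describe fragments of genomic DNA cut by methylation-sensitive enzymes. If such fragments were hybridised, the values below are not transcript levels.

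In each channel of each array, 49% to 60.3% of the EMPV1 probes were above background, meaning brighter than the mean of 153 negative control spots by more than 2 SD. Of the trophectoderm markers with a probe, 6 of 8 were above background in all 8 channels (DAB2, ELF5, GATA2, GATA3, TEAD4 and TFAP2C), as were LIN28A and UTF1 among 5 inner cell mass markers and GATA6 and PDGFRA among 3 of primitive endoderm. Of 6 granulosa and cumulus markers, AMH and FST were above background in all 8 channels. The 3 tested probes of that list summed to 1733 to 3825 normalized intensity units in the high NEFA pools and 1429 to 3054 in the control pools. Among 11 oocyte markers, GDF9, MOS, ZP2 and ZP4 were above background throughout and BMP15 and NOBOX in no channel. The 7 tested oocyte probes had sums of 1703 to 2070 in high NEFA and 1834 to 2434 in control pools. The sums of both lists overlapped between the kinds of pool. The median fitted log2 ratio of high NEFA over control was 0.14 for trophectoderm (7 of 10 tested probes above 0, 4 at an unadjusted p under 0.05), 0.25 for inner cell mass (3 of 4, and 2) and 0.16 for primitive endoderm (3 of 3, and 0). It was 0.07 for granulosa and cumulus (2 of 3, and 1) and -0.20 for oocyte markers (2 of 7, and 1). Of all tested probes, 48.2% were above 0 and 6.41% had an unadjusted p under 0.05 by limma. None of the marker probes passed the adjusted threshold in limma, and the part of the markers in the ratios below was not tested. In pools of whole blastocysts, fewer cells of a type and less RNA per cell cannot be told apart.

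None of the 15 probes differed between high NEFA and control blastocysts past the adjusted threshold. The limma fit over all 24524 tested probes, which took exposure and dye as its terms, gave 0 member probes with a Benjamini-Hochberg adjusted p under 0.05, against 0% of all tested probes. Adjusted p of the members began at 0.764. Before adjustment, 3 of the 15 probes had p under 0.05, and so did 6.41% of all tested probes. Of the 3, 2 had a ratio above 0 (3.17% of tested probes) and 1 a ratio below 0 (3.24%). The 3 were CASP6 EMPV1_25661 and DIABLO EMPV1_40925 on the higher side and BID EMPV1_32347 on the lower. The sister probes of CASP6 and BID had fitted ratios of -0.08 and 0.02, and that of DIABLO had 0.18, on the same side. DIABLO EMPV1_40925 met the filter of at least 4 of 8 channels above background mostly through the high NEFA pools, where it was high. With replicate 1 left out the count of members at an unadjusted p under 0.05 was 1, with replicate 3 left out it was 0, and 2 to 4 without the others. The share of all tested probes was 9.22% without replicate 1, 4.93% without replicate 3, and 5.34% to 9.64% without the others.

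Fitted ratios of the 15 probes, as log2 of high NEFA over control, ran from -0.32 to 0.33, with 8 of 15 above 0 and 7 below, where 48.2% of tested probes were above 0. Their median was 0.02, and that of all tested probes -0.01. The 95% interval lay within a 2-fold difference for all 15 probes, as for 99.5% of tested probes, and within a 1.5-fold difference for 12, against 87.9% of tested probes. The 3 with wider reach were MCL1 EMPV1_00335, whose interval ended at -0.71, CASP6 EMPV1_25661, at 0.64, and DIABLO EMPV1_40925, at 0.61. The standard error ranged from 0.12 to 0.20, and the number of arrays limits this precision. These errors and intervals assign every difference between the dye orientations to the dye term. Without that term the standard error ran from 0.15 for BCL2 to 0.33 for MCL1 EMPV1_00680.

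**Figure D1:**
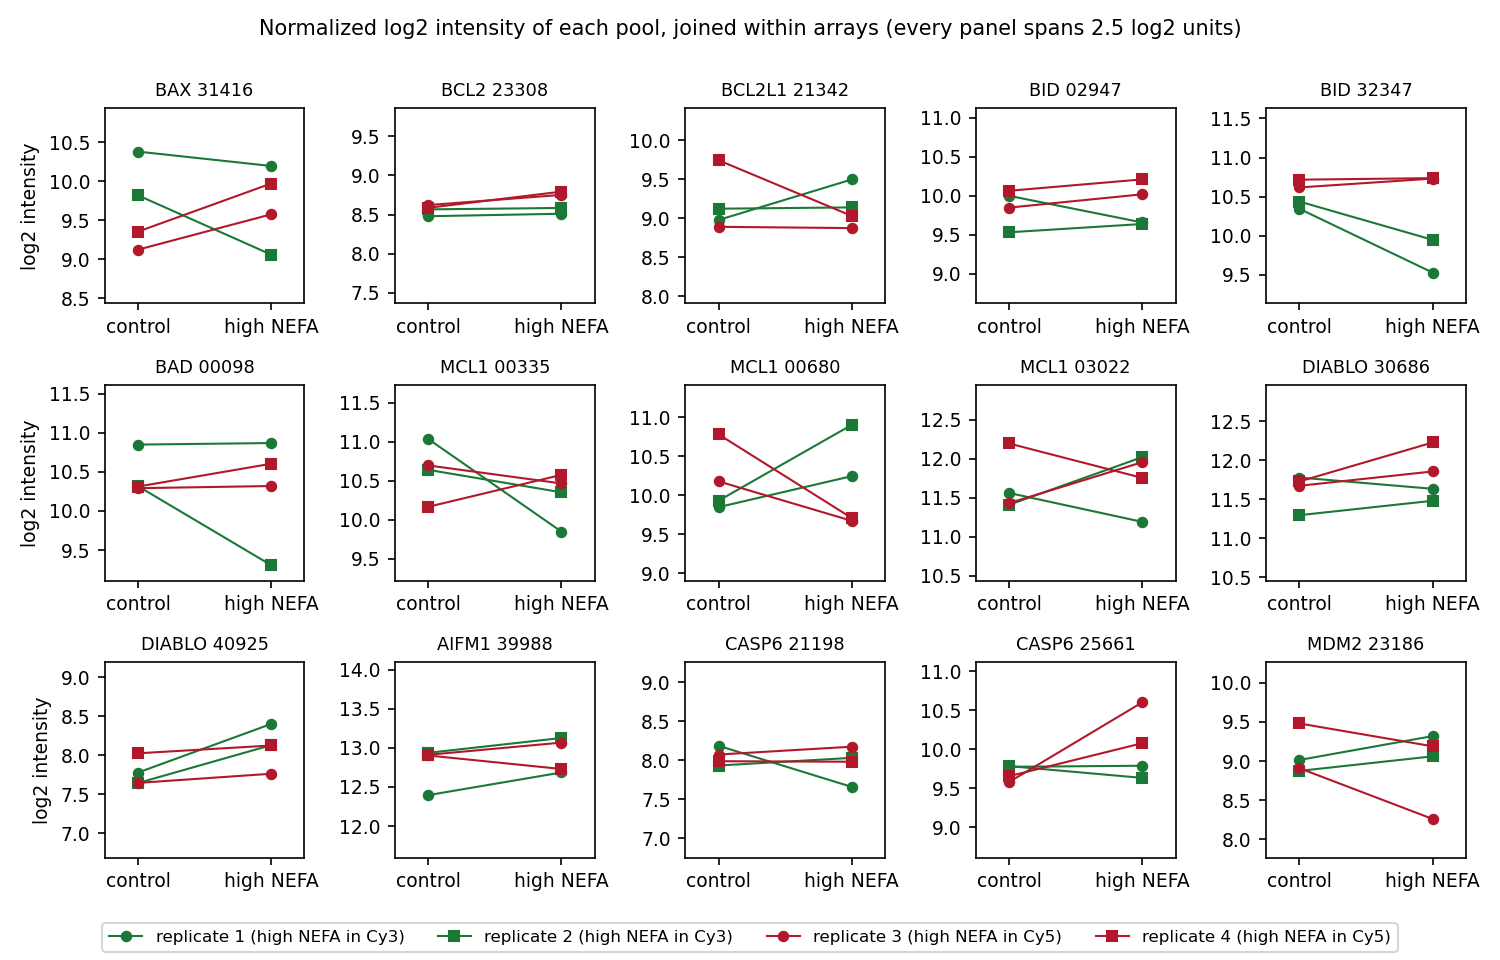
Normalized log2 intensity of each control and high NEFA pool for the 15 probes, 1 panel per probe. Lines join the 2 pools of an array, in green where the high NEFA pool was in Cy3 and in red where it was in Cy5. BCL2 is nearly flat, BAX and MCL1 EMPV1_00680 cross by colour, and in no panel do the pools of the 2 kinds separate.

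BAX, the effector that forms pores in the outer mitochondrial membrane, had no single direction. Its normalized log2 intensity was 10.20, 9.06, 9.58 and 9.97 in high NEFA pools, in the order of the replicates, while their controls had 10.38, 9.82, 9.12 and 9.36. The ratios were thus -0.18, -0.76, 0.45 and 0.62. Lower values stood on both arrays with the high NEFA pool in Cy3 and higher values on both with it in Cy5, and the groups overlapped. The fitted ratio of BAX was 0.03 ± 0.14 (SE, 4 arrays) with a limma adjusted p of 0.975, and its 95% interval ran from -0.28 to 0.34.

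BID and BAD are BH3-only proteins, which relay death signals to the rest of the family. BID is activated when caspase-8 cuts it. Its probe EMPV1_32347 had 9.53, 9.95, 10.73 and 10.74 in the high NEFA pools and 10.34, 10.44, 10.62 and 10.72 in the control pools. The ratios of -0.82 and -0.49 on replicates 1 and 2 stood against 0.11 and 0.02 on replicates 3 and 4, so the lower level was seen with 1 dye orientation. This gave a fitted ratio of -0.29 ± 0.13, an unadjusted p of 0.0458 and an adjusted p of 0.764 by limma. The other BID probe, EMPV1_02947, had ratios of -0.34, 0.11, 0.17 and 0.15 and a fitted ratio of 0.02 ± 0.13.

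BAD, which binds BCL2 and BCL2L1 unless it is phosphorylated, had 10.87, 9.31, 10.32 and 10.60 in the high NEFA pools and 10.85, 10.32, 10.29 and 10.31 in the control pools. A single pool set its fitted ratio of -0.17 ± 0.17. The high NEFA pool of replicate 2 was low, with a ratio of -1.01, whereas the other arrays had 0.02, 0.03 and 0.29. Without replicate 2 the fitted ratio was 0.09. The adjusted p over the 4 arrays was 0.855 by limma.

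Among the survival proteins, which bind and hold back BAX and the BH3-only members, BCL2 varied least. It had 8.51, 8.58, 8.75 and 8.79 in the high NEFA pools and 8.48, 8.57, 8.62 and 8.59 in the control pools. Each high NEFA pool was slightly above its control, by 0.03, 0.02, 0.13 and 0.21, although the ranges overlapped. The SD of these 4 ratios was 0.09, where the median SD over tested probes was 0.38. The fitted ratio of BCL2 was 0.10 ± 0.12, with a 95% interval of -0.18 to 0.37 and an adjusted p of 0.886 by limma. BCL2 and DIABLO EMPV1_40925 were the 2 member probes that lay higher on all 4 arrays, and none lay lower on all 4. Of all tested probes, 3.76% lay higher on all 4, 4.06% lower, and 7.82% did 1 or the other. With mean pixel intensity the BCL2 ratios were -0.26, -0.16, 0.16 and 0.34, so that 2 of the 4 were then below 0.

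BCL2L1, also known as BCL-xL, had ratios of 0.52, 0.02, -0.02 and -0.71. The arrays at either end belonged to different dye orientations, and replicates 2 and 3 were near 0. Its levels were 9.50, 9.14, 8.87 and 9.03 in high NEFA and 8.98, 9.12, 8.89 and 9.74 in control pools, with the highest of all 8 in the control pool of replicate 4. The fitted ratio was -0.05 ± 0.16, at an adjusted p of 0.962 by limma.

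MCL1, a short-lived survival protein, was read by 3 probes that did not follow each other. Probe EMPV1_00335 had ratios of -1.19, -0.29, -0.23 and 0.41 and the lowest fitted ratio of the members, -0.32 ± 0.17, at an unadjusted p of 0.0934 and an adjusted p of 0.769 by limma. Its levels were 9.85, 10.35, 10.47 and 10.58 in high NEFA and 11.03, 10.64, 10.70 and 10.17 in control pools, with the largest gap on replicate 1. The fitted ratio was -0.10 without that array, -0.16 without replicate 3, -0.55 without replicate 2 and -0.48 without replicate 4. The last pair had an unadjusted p of 0.0038 and 0.0235 and an adjusted p of 0.241 and 0.841 by limma. Probe EMPV1_00680 gave 0.40, 0.97, -0.50 and -1.07, positive on both arrays of 1 dye orientation and negative on both of the other, with a fitted ratio of -0.05 ± 0.15. Probe EMPV1_03022 gave -0.37, 0.61, 0.52 and -0.44 and a fitted ratio of 0.08 ± 0.20. On replicate 1 the probes EMPV1_00335 and EMPV1_00680 thus had opposite signs in the same pair of pools.

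**Figure D2:**
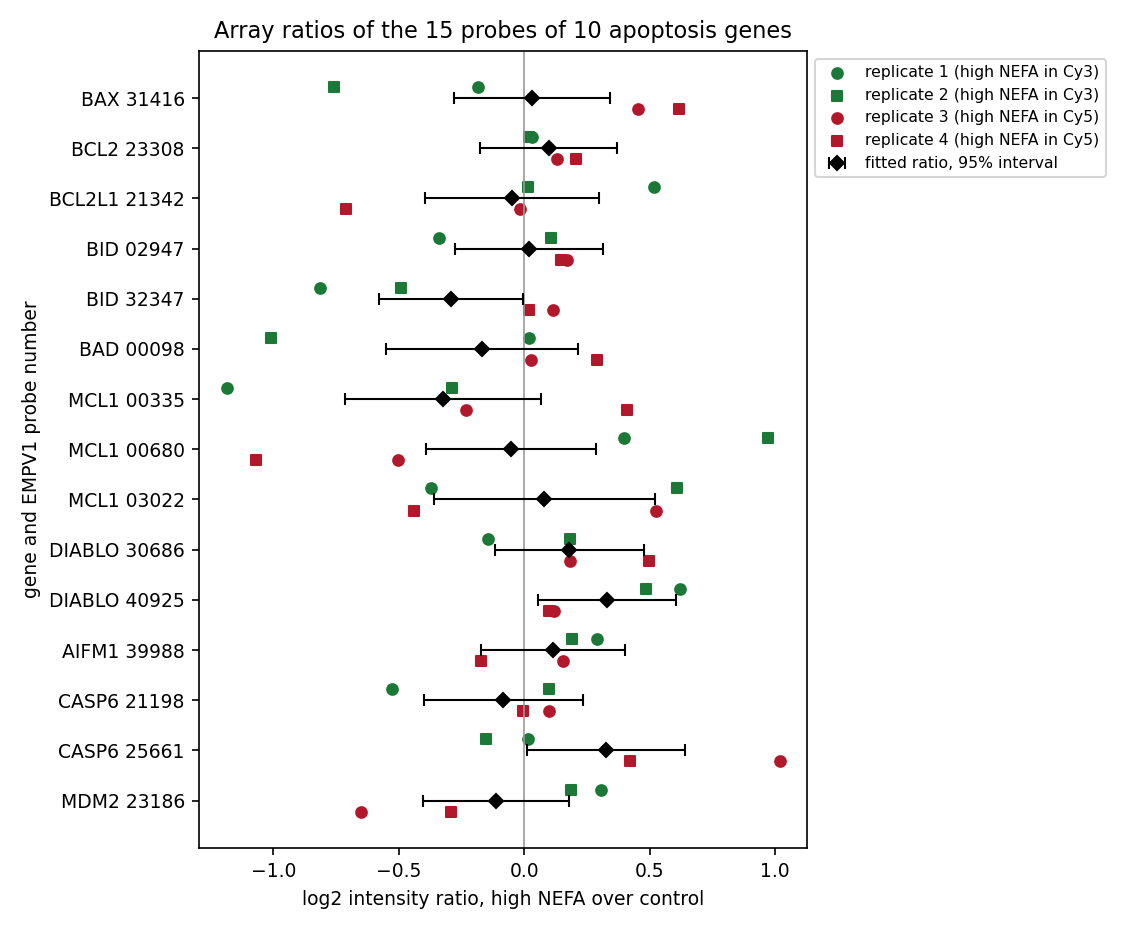
Log2 intensity ratio of high NEFA over control on each of the 4 arrays (coloured points, by dye orientation) and the fitted ratio with its 95% interval (black) for the 15 probes. Intervals of CASP6 EMPV1_25661, DIABLO EMPV1_40925 and BID EMPV1_32347 leave out 0 before adjustment, and the green and red points of BAX, MCL1 EMPV1_00680 and MDM2 lie on opposite sides of it.

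DIABLO, also called SMAC, leaves the opened mitochondrion and frees caspases from their inhibitors. Its probe EMPV1_30686 had 11.63, 11.48, 11.86 and 12.23 in high NEFA and 11.78, 11.30, 11.67 and 11.73 in control pools. Replicates 2, 3 and 4 were higher in high NEFA, by 0.18, 0.18 and 0.50, and replicate 1 had -0.14, which gave 0.18 ± 0.13 and an adjusted p of 0.817 by limma. Without replicate 2 the fitted ratio was 0.0983, and without replicate 4 it was 0.10. Its other probe, EMPV1_40925, had 8.40, 8.13, 7.76 and 8.12 in high NEFA and 7.78, 7.64, 7.65 and 8.02 in control pools, or ratios of 0.62, 0.48, 0.12 and 0.10. All 4 were positive, and the 2 large ones were those with the high NEFA pool in Cy3. It had the highest fitted ratio and smallest p of the members, 0.33 ± 0.12 at an unadjusted p of 0.0234 and an adjusted p of 0.764 by limma. It was brighter than the background limit in 3 of the 4 high NEFA channels and 1 of the 4 control channels. Its entry into the test thus rested mostly on the pools where it was high. With mean instead of median pixel intensity its fitted ratio was 0.0034.

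AIFM1, a mitochondrial flavoprotein that moves to the nucleus during cell death, had 12.69, 13.13, 13.07 and 12.73 in high NEFA and 12.40, 12.94, 12.91 and 12.90 in control pools. Ratios of 0.29, 0.19 and 0.16 on replicates 1 to 3 contrasted with -0.17 on replicate 4. Its fitted ratio was 0.12 ± 0.13 and its adjusted p 0.865 by limma, with 0.03 without replicate 3 and 0.20 without replicate 4. Raw AIFM1 intensities of 4817 to 10028 stood far above the background limit, which was at most 369.

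CASP6 encodes an executioner caspase that cuts nuclear lamins. Its probe EMPV1_25661 had 9.79, 9.63, 10.60 and 10.08 in the high NEFA pools and 9.77, 9.78, 9.58 and 9.65 in the control pools. The control pools lay close together, with an SD of 0.10, and the high NEFA pools of replicates 3 and 4 stood above them by 1.02 and 0.42, while replicates 1 and 2 had 0.01 and -0.15. The fitted ratio was 0.33 ± 0.14, with a 95% interval of 0.01 to 0.64, an unadjusted p of 0.0436 and an adjusted p of 0.764 by limma. Without replicate 3 the ratio was 0.18, and with mean pixel intensity 0.14 ± 0.03, at an adjusted p of 0.511 by limma. The 4 ratios with mean pixel intensity were -0.14, -0.17, 0.44 and 0.42, so their sign followed the dye orientation. The second CASP6 probe, EMPV1_21198, brighter than the background limit in 2 of the 4 high NEFA channels and 4 of the 4 control channels, had ratios of -0.53, 0.10, 0.10 and -0.01 and a fitted ratio of -0.08 ± 0.14.

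MDM2, the ubiquitin ligase that marks p53 for degradation and is itself a p53 target, had 9.32, 9.06, 8.26 and 9.19 in the high NEFA pools and 9.01, 8.87, 8.91 and 9.48 in the control pools. Its ratios were 0.31 and 0.19 on replicates 1 and 2 and -0.65 and -0.29 on replicates 3 and 4. The sign thus followed the dye orientation. The fitted ratio was -0.11 ± 0.13, at an adjusted p of 0.870 by limma. It was -0.02 without replicate 3 and -0.20 without replicate 4.

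Sister probes of 1 gene differed in fitted ratio by 0.13 to 0.41 over the 6 probe pairs of BID, MCL1, DIABLO and CASP6. The median difference was 0.29. Over the 2250 pairs of tested probes that shared a symbol, the median was 0.15 and the 90th percentile 0.37. The CASP6 pair, at 0.41, and the MCL1 pair of EMPV1_00335 and EMPV1_03022, at 0.40, were beyond that percentile. These pairs share their 4 arrays, and whether they read the same transcript was not tested.

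Within arrays, the balance of BAX and BCL2 shifted with dye orientation. The BAX ratio minus the BCL2 ratio was -0.22 and -0.78 on replicates 1 and 2 and 0.32 and 0.41 on replicates 3 and 4, with a mean of -0.07. The 4 probes of the death-promoting BAX, BID and BAD had a median ratio of -0.26, -0.62, 0.14 and 0.22 on replicates 1 to 4. For the 5 probes of the survival genes BCL2, BCL2L1 and MCL1 it was 0.03, 0.02, -0.02 and -0.44. The death-promoting median was thus below the survival median on replicates 1 and 2 and above it on replicates 3 and 4.

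Among the 10 genes, 5 had a probe whose ratio was of 1 sign on both arrays of a dye orientation and of the other sign on both remaining arrays: BAX, BCL2L1, BID (EMPV1_32347), MCL1 (EMPV1_00680) and MDM2. That is 5 of 15 probes, while 41.6% of all tested probes did so. The fitted dye effect, the part of log2 Cy5 over Cy3 that does not turn with exposure, was largest for MCL1 EMPV1_00680, at -0.74 ± 0.15, and for BAX, at 0.50 ± 0.14. These 2 probes passed the adjusted threshold for the dye term, with adjusted p of 0.0091 and 0.0294 by limma, as did 22.8% of tested probes. The median size of the dye effect was 0.32 over the member probes and 0.24 over all tested probes, compared with a median size of the exposure ratio of 0.11 in both sets. Replicates 1 and 2 differ from replicates 3 and 4 in their pools as well as in their dyes, so a dye effect and a difference between those pools cannot be told apart.

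**Figure D3:**
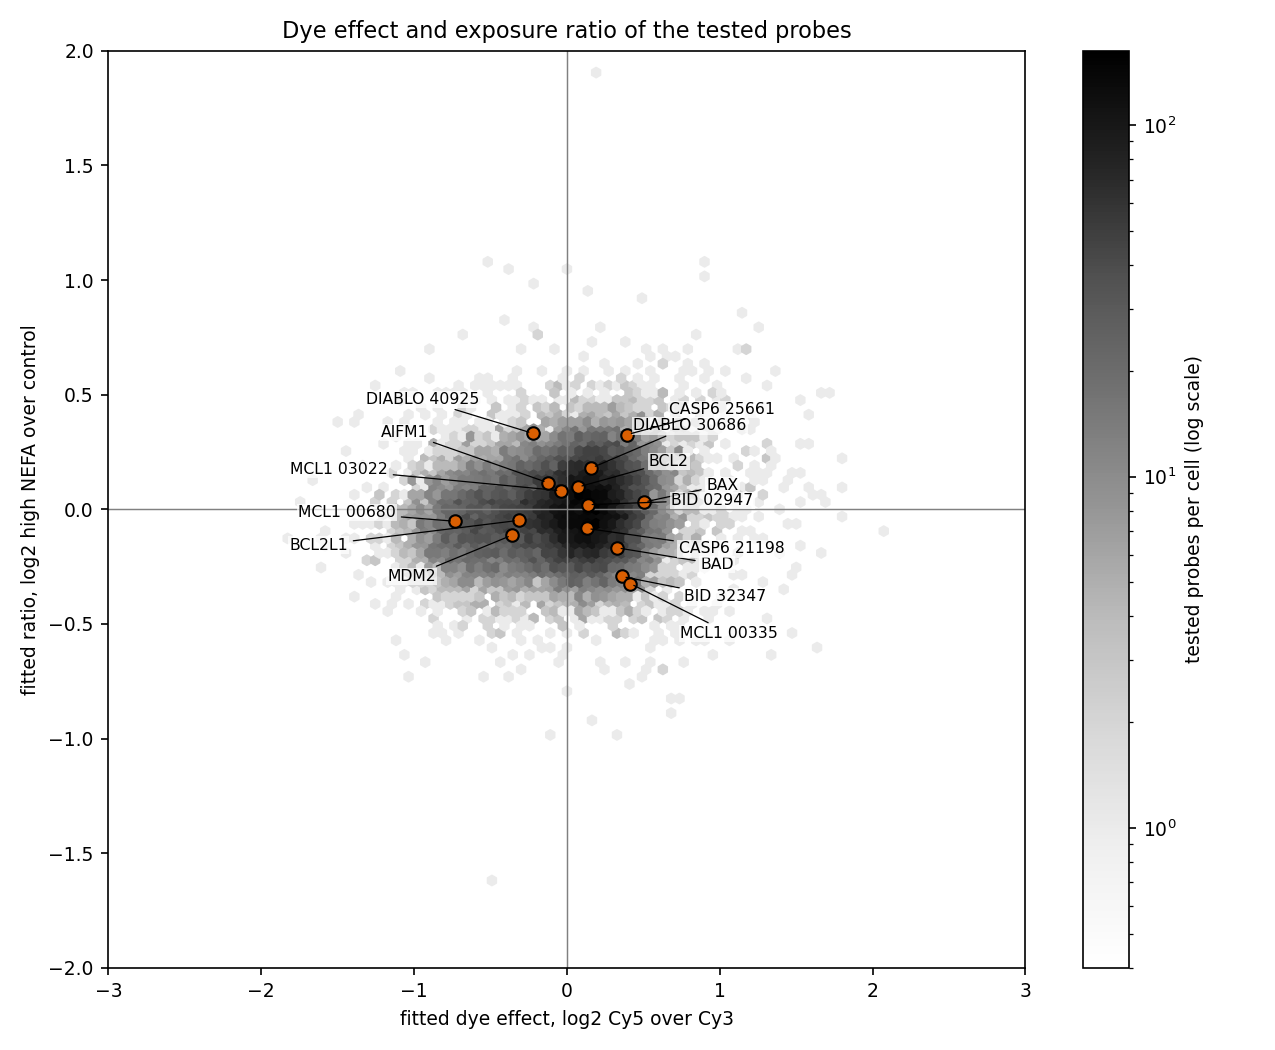
Fitted ratio of high NEFA over control (vertical, log2) against the fitted dye effect (horizontal, log2 Cy5 over Cy3) for the 24524 tested probes, shaded by the number of probes per cell on a log scale. The 15 member probes (orange) spread from -0.74 to 0.50 along the dye axis and from -0.32 to 0.33 along the exposure axis.

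Separation of the pools was rare on the whole array. The 4 high NEFA levels lay wholly above or below the 4 control levels in 0.905% of tested probes. Among the members this was 0 of 15 probes, which is near that share. These levels were not scaled between arrays. Local background at the member spots was 26 to 102 intensity units in Cy3 and 34 to 59 in Cy5, and no member spot was marked to be ignored. Raw intensity was above the background limit in 58 of 60 Cy3 and 56 of 60 Cy5 readings of the members. The readings below it belonged to DIABLO EMPV1_40925 and CASP6 EMPV1_21198, and the other 13 probes were above background in all 8 channels, as were 56.6% of tested probes.

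The wider apoptosis pathway was read through 6 lists of 89 other genes, of which 52 had a probe and 36 had a tested probe. None of their 43 tested probes passed the adjusted threshold in the limma fit. At an unadjusted p under 0.05 there were 7, with 4 higher and 3 lower in high NEFA, which is 16.3% of the 43, beside 6.41% of all tested probes. Of the 4 higher, BCL2L11 EMPV1_10088 and RIPK1 met the filter of at least 4 of 8 channels mostly through the high NEFA pools, where they were high. In the fit restricted to probes above background in all 8 channels, 3 pathway probes had an unadjusted p under 0.05. Without replicate 2 or without replicate 4 there were 2, without replicate 3 there were 4, and with mean pixel intensity there was 1. The count was 8 without replicate 1, with plain subtraction of background and with the authors' log2 ratios, and 12 without a filter on dim probes. The share of all tested probes was 5.47% in the restricted fit and 9.31% with mean pixel intensity. It was 9.22%, 9.64%, 4.93% and 5.34% without replicates 1, 2, 3 and 4. With plain subtraction it was 5.89%, with the authors' log2 ratios 5.47%, and without a filter 7.22%. The median fitted ratio of the 43 probes was 0.0013, with 22 above 0 and 21 below.

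Other BCL2 family genes ran from -0.31 to 0.50, with 5 of 8 tested probes above 0 and a median of 0.11. BCL2L11, or BIM, a BH3-only activator of BAX, had ratios of -0.15, -0.08, 0.91 and 1.30 at its probe EMPV1_10088 and a fitted ratio of 0.50 ± 0.13 (unadjusted p 0.0036 and adjusted p 0.764 by limma). That probe was brighter than the background limit in 3 of the 4 high NEFA channels and 1 of the 4 control channels. Its entry into the test thus rested mostly on the pools where it was high. A second BCL2L11 probe had -0.06 ± 0.13. BCL2A1, a survival protein induced by NF-kB, had -0.38, -0.18, 0.74 and 1.35, with a fitted ratio of 0.39 ± 0.14, and was brighter than the background limit in 2 of the 4 channels of either kind. The probes BCL2L11 EMPV1_10088 and BCL2A1 EMPV1_42771 had positive ratios on replicates 3 and 4, where the second BCL2L11 probe had -0.24 and -0.0020. Both had negative ratios on replicates 1 and 2, so the sign followed the dye orientation. The fitted dye effect was 0.61 ± 0.13 for BCL2L11 EMPV1_10088 and 0.66 ± 0.14 for BCL2A1. The adjusted p of the dye term was 0.0103 and 0.0105 by limma. BCL2L10, a family member best known from oocytes, was lower on all 4 arrays at -0.24, -0.38, -0.29 and -0.34, with a fitted ratio of -0.31 ± 0.12, an unadjusted p of 0.0306 and an adjusted p of 0.764 by limma. The oocyte markers had a median of -0.20, and their part in this was not tested. BCL2L10 was chosen after its values were seen, and was brighter than the background limit in 2 of the 4 high NEFA channels and 3 of the 4 control channels.

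For mitochondrial release and the apoptosome, 4 of 7 tested probes were above 0, and the median was 0.01. PPIF, or cyclophilin D, a regulator of the mitochondrial permeability transition, had 0.25, 0.05, 0.26 and 0.49 and a fitted ratio of 0.26 ± 0.13. All 4 of its high NEFA pools were above their controls. VDAC1, a channel of the outer mitochondrial membrane, had 1.01 and 1.14 on replicates 1 and 2 and -0.65 and -0.75 on replicates 3 and 4, and a fitted ratio of 0.19 ± 0.12. Of the caspases and substrates, 4 of 7 probes were above 0, with a median of 0.0013. LMNA, which encodes the lamins A and C that caspase-6 cuts, was higher on all 4 arrays at 0.20, 0.37, 0.47 and 0.21, with a fitted ratio of 0.31 ± 0.13, an unadjusted p of 0.0341 and an adjusted p of 0.764 by limma. Its 4 high NEFA levels lay wholly above its 4 control levels, as happened in either direction for 0.905% of tested probes. DFFA, the inhibitor of the nuclease that fragments DNA in apoptosis, had -0.06, 0.37, -0.76 and -0.31 at its probe EMPV1_32397 and a fitted ratio of -0.19 ± 0.14, while its second probe had 0.06 ± 0.15.

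Inhibitors of apoptosis and other brakes had 1 of 4 probes above 0 and a median of -0.10. BIRC6, a large ubiquitin ligase that inhibits caspases, had -0.18, -0.27, 0.21 and -0.17, and CFLAR, which blocks caspase-8 at death receptors, had 0.43, 0.04, -0.50 and -0.38 at its probe EMPV1_34733. Their fitted ratios were both -0.10 ± 0.13, and a second CFLAR probe had 0.0068 ± 0.13. Among death receptors and adaptors, 3 of 13 probes were bright enough to test. RIPK1, a kinase that steers death receptor signals, was higher on all 4 arrays at 0.05, 0.57, 0.26 and 0.72, with a fitted ratio of 0.40 ± 0.15. It was brighter than the background limit in 3 of the 4 high NEFA channels and 1 of the 4 control channels. Its entry into the test thus rested mostly on the pools where it was high. DAXX, a histone chaperone first described as a binding partner of the receptor FAS, had -0.64, -0.48, -0.60 and -0.0033 at its probe EMPV1_43120, a fitted ratio of -0.43 ± 0.14, and a level above background in all 8 channels. A second DAXX probe had -0.07 ± 0.13, and the adjusted p of both named genes was 0.764 by limma.

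p53 and its targets were split evenly, with 7 of 14 probes above 0 and a median of -0.0016. MDM4, the partner of MDM2 in restraining p53, had -0.63, -0.75, -0.01 and 0.23 and a fitted ratio of -0.29 ± 0.13, with an unadjusted p of 0.0443 and an adjusted p of 0.764 by limma. Its low values were on the 2 arrays where MDM2 had its positive ratios, which are those with the high NEFA pool in Cy3. The fitted dye effect was 0.40 ± 0.13 for MDM4 and -0.36 ± 0.13 for MDM2. The adjusted p of the dye term was 0.0455 and 0.0733 by limma. FDXR, a mitochondrial reductase and p53 target, had 1.20 and 0.82 on replicates 1 and 2 and -0.65 and -0.75 on replicates 3 and 4 at its probe EMPV1_30567, with a fitted ratio of 0.15 ± 0.13, and was brighter than the background limit in 2 channels of each group. The other FDXR probes had -0.12 ± 0.13 and, where all 8 channels were above background, 0.06 ± 0.16. In the 6 lists together, 15 of 43 probes had opposite signs between the dye orientations in this way, while 41.6% of all tested probes did so.

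**Figure D4:**
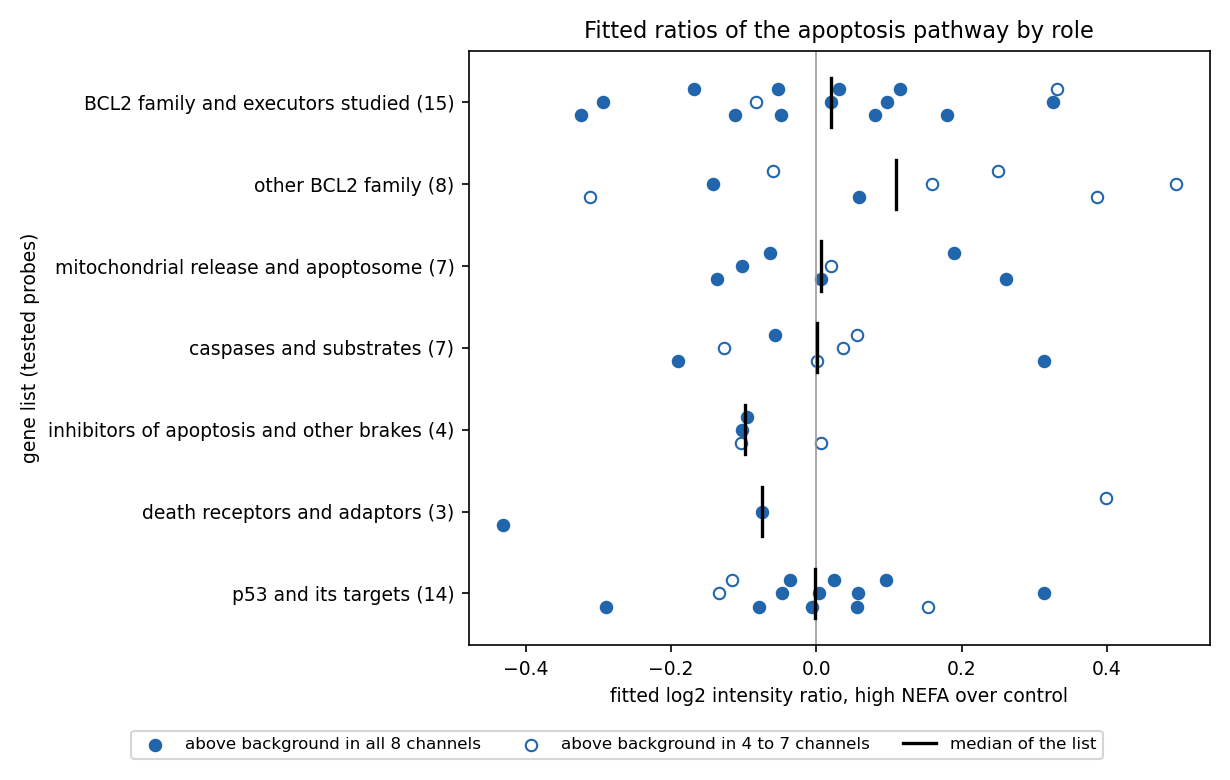
Fitted log2 ratio of high NEFA over control for each tested probe of the 10 genes and of 6 lists of other apoptosis genes, with the number of tested probes in brackets. Filled points were above background in all 8 channels, open points in 4 to 7, and black bars are medians; the medians lie between -0.10 and 0.11.

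The pixel summary turned the sign of several members. With mean in place of median pixel intensity of spot and background, 6 of the 15 probes had a fitted ratio of the other sign, compared with 34.1% of all tested probes. The BID probe EMPV1_02947 went from 0.02 to -0.13 and CASP6 EMPV1_21198 from -0.08 to 0.09. BID EMPV1_32347 had -0.21 and MDM2 had -0.16 with mean pixel intensity, both below 0 as before. No other processing setting turned the sign of a member probe.

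**Figure D5:**
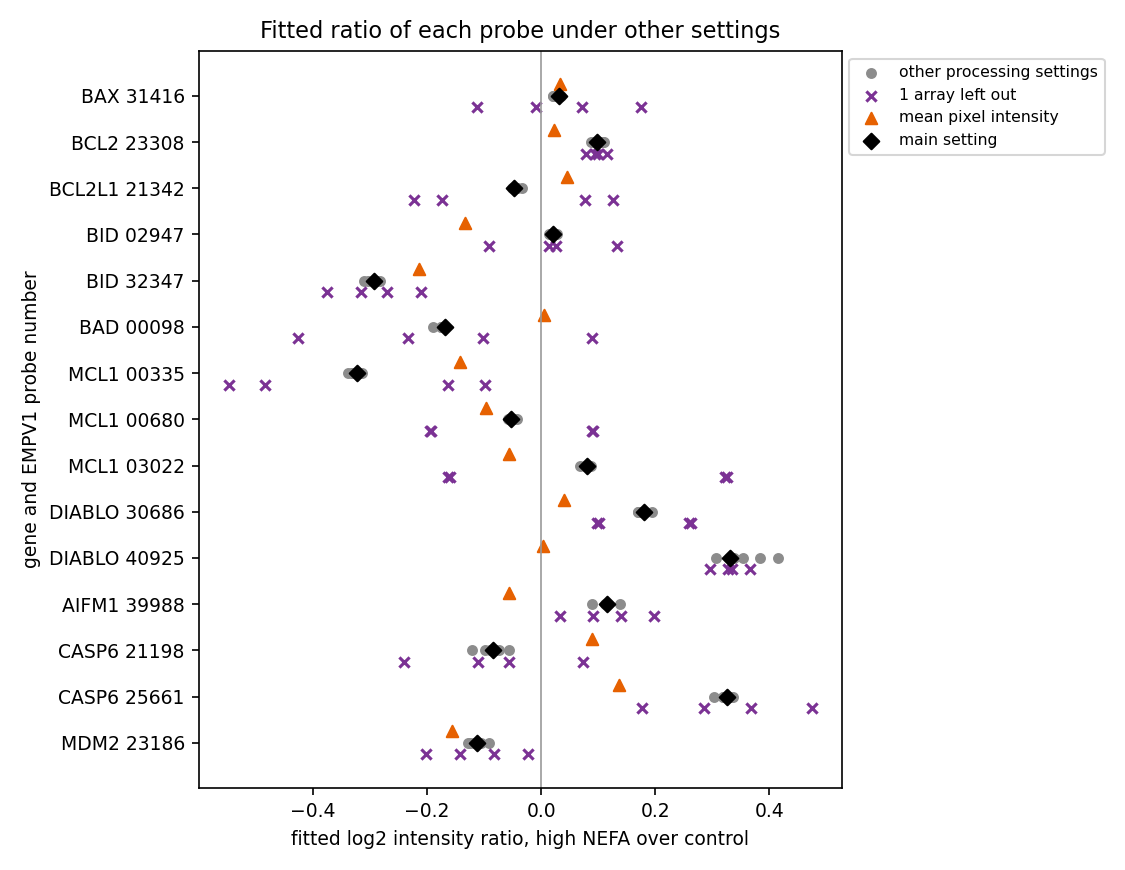
Fitted log2 ratio of high NEFA over control for the 15 probes as reported above (diamonds), mean pixel intensity (triangles), the other processing settings (grey points) and with 1 array left out (crosses). Grey points stay close to the diamonds, with the widest spread for DIABLO EMPV1_40925, whereas triangles and crosses fall on the other side of 0 for several probes.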

How the data were processed

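Intensities were deposited by the authors as scanner output. Per the file headers, each holds mean and median pixel intensities of every spot and its surroundings for Cy3 and Cy5, neither subtracted nor normalized, and a mark for spots to ignore. The authors also deposited log2 ratios, made with limma per the submitters' processing notes, whose scale and direction are not stated. They followed log2 Cy5 over Cy3 of background-subtracted, loess-normalized medians (correlation 0.975 to 0.994 over 43794 probes, with column medians of 0.0022 to 0.0161) and served as an alternative.

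Median intensities were corrected with normexp (offset 50) and loess, with control spots at weight 0 and marked spots (17 to 60 per array) left out, in limma 3.58.1 and R 4.3.3. Probes above background in at least 4 of 8 channels were tested with exposure and dye terms, 2 residual and 7.87 prior degrees of freedom, and two-sided Benjamini-Hochberg adjustment at 0.05. The script was tested on simulated data. Alternatives covered background correction, pixel summary, normalization, the filter on dim probes, the dye term, the prior and leaving out each array. Levels were not scaled between arrays. Symbols came from the platform table, with 218 older ones updated through RefSeq.

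The labels call the arrays biological replicates but name no separate sows or collections. The p-values and SE measure only the spread between arrays of the same dye orientation, which may be technical. With 2 residual and 7.87 prior degrees of freedom, they draw more on that spread over all tested probes than on the probe's own. Any difference between the 2 orientations goes into the dye term. Without that term the SE was 0.25 for BAX and 0.33 for MCL1 EMPV1_00680, against 0.14 and 0.15 with it. Members and lists were chosen with earlier results of these data known. All members are named, and of each other list the 2 tested probes of smallest p, with their sister probes. BCL2L10 was named outside this rule.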

Additional observations from a re-analysis of the deposited data

Results flagged for a closer look

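In 2 of 27 sets of 4 array ratios examined (the 15 member probes and the 12 named pathway probes), 1 array stood far from the other 3, by a gap over range beyond Dixon's 95% critical value. Chance gives about 1 such set in 20. For BID EMPV1_02947 the gap over range was 0.875, with -0.34 on replicate 1 and 0.11 to 0.17 on the others. For CASP6 EMPV1_21198 it was 0.83, with -0.53 on replicate 1 and -0.01 to 0.10 on the others. The cause was not tested.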

How the results depend on the processing

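No member probe passed the adjusted threshold under any of 12 processing settings or with any of the 4 arrays left out. Over all tested probes the count past it was 6 with plain subtraction, 4 with an offset of 16, 5 without a filter on dim probes, 3 with the authors' log2 ratios, and 21 to 76 with 1 array left out. Member probes at an unadjusted p under 0.05 numbered 1 with an offset of 16, with mean pixel intensity and with a trended and robust prior, 0 without a dye intercept, and 0 to 4 with 1 array left out. Pathway probes numbered 1 with mean pixel intensity, 12 without a filter, 3 where all 8 channels were above background, 1 without a dye intercept, and 2 to 8 with 1 array left out. The share of all tested probes at that p was 9.31% with mean pixel intensity and 0.824% without a dye intercept. It was 6.53% with an offset of 16 and 6.93% with a trended and robust prior. Without a filter it was 7.22% of 43794 probes, and with all 8 channels above background 5.47% of 13872. The range was 4.93% to 9.64% with 1 array left out. With mean pixel intensity the fitted ratio turned to 0.0445 for BCL2L1, -0.13 for BID EMPV1_02947, 0.0050 for BAD, -0.0565 for MCL1 EMPV1_03022, -0.0573 for AIFM1 and 0.0887 for CASP6 EMPV1_21198. With 1 array left out it ran from -0.11 to 0.17 for BAX, -0.22 to 0.13 for BCL2L1, -0.0917 to 0.13 for BID EMPV1_02947, -0.43 to 0.0896 for BAD, -0.20 to 0.0913 for MCL1 EMPV1_00680, -0.16 to 0.33 for MCL1 EMPV1_03022 and -0.24 to 0.0724 for CASP6 EMPV1_21198. These turns of sign were of ratios that had not passed the threshold, and their cause was not tested. A fit without an array leaves 1 array alone in its dye orientation. Signal over background limits DIABLO EMPV1_40925 and CASP6 EMPV1_21198 most. Raw readings of MDM2 and BCL2 began at 277 and 312, both in Cy5, where the background limit was 205 to 247.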
